A study of Mus musculus with 6 samples.

Results

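The growth hormone and STAT5 axis of the liver was followed through 10 genes, Ghr, Igf1, Igfals, Socs2, Cish, Stat5a, Stat5b, Bcl6, Cux2 and Onecut1, chosen by symbol for their known place in the pathway. All 10 had a row in the deposited table of 26608 genes. RNA of liver came from 6 mice aged 6 weeks, with 1 library for each of 3 LiK and 3 LiKM animals. What the genotype names stand for is not written in the labels and is taken from knowledge of the publication: LiKM hepatocytes lack Mdm2, the ubiquitin ligase that keeps p53 low. The promoter that drives the recombination is not given in the sources used here, and neither is the sex of the mice, which is read from transcripts below. The comparison of LiKM with LiK asks what the loss of Mdm2 adds to the LiK liver.

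Growth hormone from the pituitary binds its receptor on hepatocytes, which activates the kinase JAK2 and then the transcription factors STAT5A and STAT5B. STAT5 switches on Igf1, the main endocrine growth factor made by the liver, and Igfals, whose product keeps IGF1 in a long-lived complex in the blood. It also switches on Socs2 and Cish, which feed back to restrain the signal, so that these transcripts rise and fall with each pulse of the hormone. Male mice secrete growth hormone in pulses and female mice in a more even pattern, and the pattern sets much of the sex difference of the liver. BCL6 and CUX2 are repressors and HNF6 (the product of Onecut1) an activator in that programme.

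STAT5 binds DNA at the palindrome TTCNNNGAA, which reads the same on both strands. The RefSeq promoter windows (GRCm38.p6, 250 bases before to 50 after an annotated start) covered 9 of the 10 genes with 16 windows, and Socs2 had no entry. The motif was present in 5 of these windows, in the genes Igfals, Cish and Bcl6. Of all 32851 windows of that length, 8.30% held it, 0.457% held it at least 2 times and 11 windows held it at least 3 times. Stretches with the motif are shown because the levels of these 3 genes are followed below, each 5′ to 3′ on the strand of the gene with the motif in capitals.
Igfals chr17:24877981-24878230: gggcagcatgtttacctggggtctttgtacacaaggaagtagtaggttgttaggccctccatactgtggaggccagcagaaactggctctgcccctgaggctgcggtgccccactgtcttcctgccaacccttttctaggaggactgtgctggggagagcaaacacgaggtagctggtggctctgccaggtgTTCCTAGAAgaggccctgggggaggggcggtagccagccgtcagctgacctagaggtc
Cish chr9:107296654-107296683: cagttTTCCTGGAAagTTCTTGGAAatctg
Bcl6 chr16:23981284-23981533: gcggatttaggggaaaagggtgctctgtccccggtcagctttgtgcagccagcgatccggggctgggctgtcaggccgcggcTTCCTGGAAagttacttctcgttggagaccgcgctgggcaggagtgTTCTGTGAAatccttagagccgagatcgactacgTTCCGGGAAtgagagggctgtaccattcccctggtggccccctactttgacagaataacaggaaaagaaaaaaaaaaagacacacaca
The Igfals stretch lies on the plus strand within the gene, its last 16 bases are in an exon of a noncoding Igfals transcript of GENCODE vM21, and its motif TTCCTAGAA begins 58 bases before the RefSeq start. The Cish stretch is on the plus strand. It runs across the RefSeq start, the motifs TTCCTGGAA and TTCTTGGAA begin at bases 1 and 12 of the transcript, and GENCODE vM21 places it in the untranslated part of an exon of a Cish transcript. The Bcl6 stretch is on the minus strand before an internal start, in intronic sequence by GENCODE vM21, and holds TTCCTGGAA, TTCTGTGAA and TTCCGGGAA at −168, −122 and −88. A match describes these letters and does not show that STAT5 binds there.

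The libraries held between 19909993 and 24874343 counts. Mdm2, the gene targeted in LiKM, lay at 28.7, 29.0 and 28.6 CPM (counts scaled to library size, with TMM factors) in LiK 1, 2 and 3 and at 122, 125 and 60.5 CPM in LiKM 1, 2 and 3. Since the count adds up reads over the whole gene, it does not test a deletion of some of its exons. LiKM 3 stood apart from the other LiKM libraries on the second principal component of log2 CPM (−37.8, against 28.4 and 20.2), a component that held 18.2% of the variance. Y-linked Ddx3y lay between 50.6 and 59.7 CPM and Xist between 0.0410 and 0.227 CPM (1 to 5 counts) in all 6 libraries. A Y-linked transcript was thus present and Xist nearly absent in every library, so all 6 livers read as male by RNA. The summed level of 10 hepatocyte markers, with no marker at 0, spanned 122590 to 146380 CPM in LiK and 125830 to 143140 CPM in LiKM. Alb made up most of it, at 80638 to 101780 CPM in LiK and 91378 to 103220 CPM in LiKM. Of the 10 markers, 7 had a negative and 3 a positive log2 fold change. In 4 of them every LiKM library lay below LiK, against 11.8% of all genes. Of the 10, 1 (Serpina1c) was called lower, against 0.813% of all genes. The summed level of 9 macrophage markers with a row spanned 246 to 319 CPM in LiK and 382 to 516 CPM in LiKM. That of 10 stellate cell markers spanned 244 to 402 and 647 to 705 CPM, and no marker was at 0 in either list. For 10 T and natural killer cell markers the sums were 3.90 to 7.17 CPM in LiK and 20.5 to 29.7 CPM in LiKM, with Cd3e and Nkg7 at 0 in at least 1 library. For 8 B cell markers they overlapped, at 3.03 to 10.01 and 6.58 to 8.87 CPM. The sums of 10 endothelial markers spanned 308 to 332 and 330 to 447 CPM, and those of 8 bile duct markers 82.7 to 254 and 110 to 233 CPM. Spp1 made up most of the bile duct sums, at 56.3 to 225 CPM in LiK and 83.6 to 180 CPM in LiKM. Of 7 bile duct markers tested, 6 were positive and 1 negative, with a median log2 fold change of 1.115, and 0 were called. In 4 of them (Krt19, Krt7, Epcam and Sox9) every LiKM library lay above LiK, against 17.8% of all genes. In bulk tissue, fewer cells of a type and less RNA per cell cannot be told apart, and the part of these cell types in the results was not tested.

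None of the axis genes was called as changed between the genotypes, but 2 different patterns lay behind that count. Ghr and Igfals were moderately lower in every LiKM library, whereas the hormone's acute responders Cish and Socs2, with Onecut1 and Bcl6, divided the LiKM livers among themselves. Of the 10 genes, 9 passed the filter on low counts and Cux2 did not. With edgeR's quasi-likelihood test and a Benjamini-Hochberg adjusted p under 0.05 over all 13537 genes tested, 0 of 9 were called higher and 0 lower, against 5.92% of all genes called in either direction (5.11% higher and 0.813% lower). At an unadjusted p under 0.05, 2 of 9 passed, Ghr and Igfals, against 22.4% of all genes. DESeq2's Wald test called those same 2 genes lower, against 2.79% of all genes with an adjusted p in that tool (Socs2 had none), and limma-voom called 0, against 4.77% of all genes in either direction. The libraries of the genotypes did not overlap for 2 of 9 genes, again Ghr and Igfals, both lower in LiKM, against 29.6% of all genes (17.8% with LiKM above and 11.8% with LiKM below). Of the 9 genes, 22.2% did not overlap, both of them below, and with so few genes nothing particular to them was read from these shares. The median log2 fold change of the 9 genes was −0.06, beside −0.003 over all genes tested, with 4 genes positive and 5 negative.

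**Figure D1:**
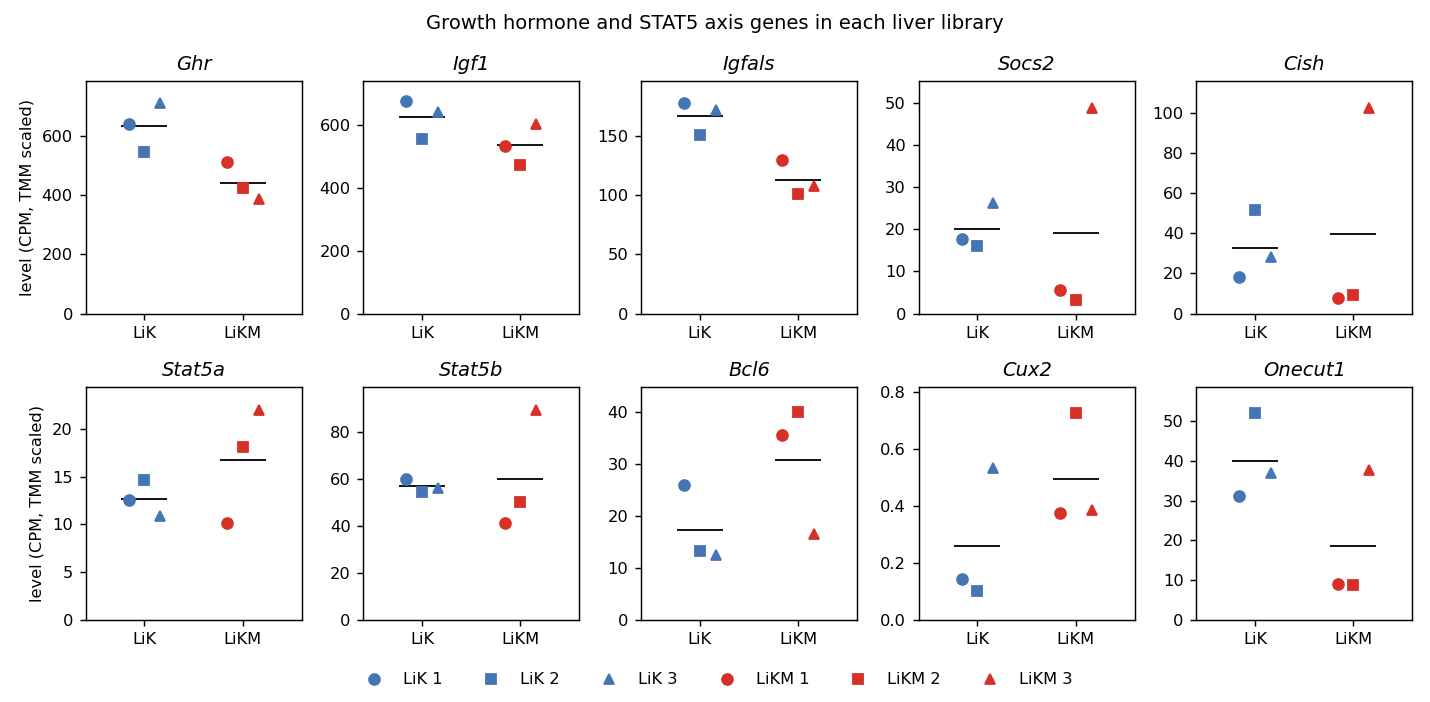
Level of each of the 10 genes in CPM after TMM scaling (y axis, linear and from 0, scaled per panel) in the LiK (blue) and LiKM (red) libraries, with the shape of a point giving the mouse number and the bar the genotype mean. Ghr and Igfals show no overlap, while LiKM 3 lies far above LiKM 1 and LiKM 2 for Socs2, Cish and Onecut1 and below them for Bcl6.

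Ghr, which encodes the growth hormone receptor and also its circulating binding protein, lies on chromosome 15 (GRCm38, 3317760 to 3583492, minus strand). Its level was 641, 544 and 710 CPM in LiK 1, 2 and 3 and 512, 424 and 386 CPM in LiKM 1, 2 and 3. Every LiKM library thus lay under the lowest LiK library. The genotype means were 632 ± 83.4 and 440 ± 64.4 CPM (SD, n = 3 each), which puts the LiKM mean at 0.697 of the LiK mean. The log2 fold change was −0.52 (SE 0.16, 95% interval −0.90 to −0.15), and the call was missed in edgeR's test after Benjamini-Hochberg adjustment (adjusted p = 0.109). DESeq2 called the gene lower with an adjusted p of 0.0276, and over all alternatives the adjusted p ranged from 0.0276 to 0.257 with a negative fold change each time.

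Igfals, on chromosome 17 (24865997 to 24882010, plus strand), encodes the acid-labile subunit that hepatocytes release. Its level was 178, 151 and 172 CPM in LiK 1, 2 and 3 and 129, 101 and 108 CPM in LiKM 1, 2 and 3. Here too the genotypes were separate, with means of 167 ± 14.5 and 113 ± 14.8 CPM (SD, n = 3 each) and a ratio of 0.676. The log2 fold change of −0.57 (SE 0.13, 95% interval −0.87 to −0.26) lay just past the threshold in edgeR's test (Benjamini-Hochberg adjusted p = 0.0530). It was called by DESeq2 (adjusted p = 0.00444), and its adjusted p ranged from 0.00444 to 0.169 over the alternatives. Among the axis genes, Igfals had the smallest p in the test of all 6 libraries.

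Igf1, on chromosome 10 (87858265 to 87937042, plus strand), encodes the growth factor itself and differed less. Its level was 675, 556 and 641 CPM in LiK 1, 2 and 3 and 534, 472 and 604 CPM in LiKM 1, 2 and 3. LiKM 3 lay inside the LiK range and the other LiKM libraries under it. The log2 fold change was −0.22 (SE 0.14, 95% interval −0.55 to 0.12; edgeR Benjamini-Hochberg adjusted p = 0.419), so the interval excludes a loss of 2-fold but not an absence of change. The count of Igf1 divided by that of Ghr was 1.05, 1.02 and 0.903 in the LiK livers and 1.04, 1.11 and 1.57 in LiKM 1, 2 and 3, which makes LiKM 3 the library with the most Igf1 for its Ghr. The spread of Ghr, Igf1 and Igfals within LiKM was near the middle of all genes. Among all genes tested, 50.7%, 57.6% and 55.8% had a larger SD of log2 CPM over the LiKM libraries than these genes.

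**Figure D2:**
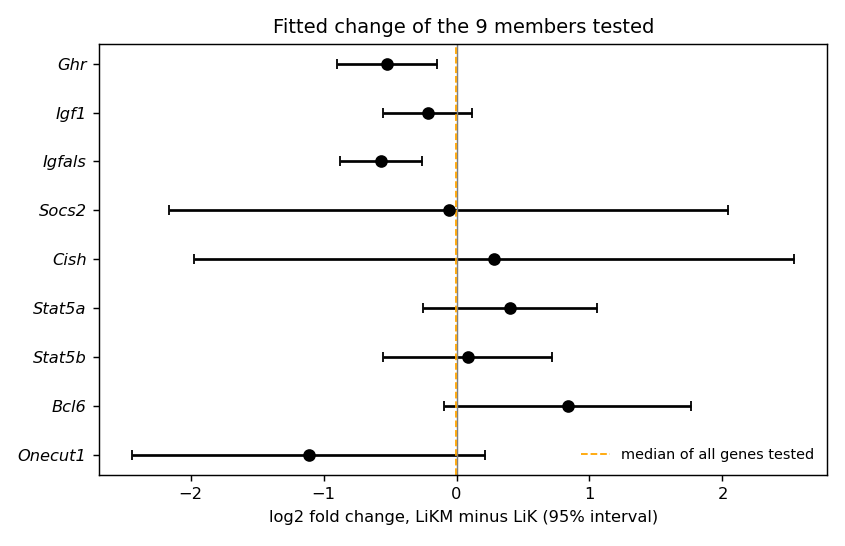
Fitted log2 fold change of LiKM against LiK for the 9 genes tested (x axis), with bars for the 95% interval and a dashed line at the median of all genes tested. The intervals of Ghr (−0.90 to −0.15) and Igfals (−0.87 to −0.26) lie below 0, and those of Socs2 and Cish span about 4 log2 units.

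The transcription factor genes of the axis lie side by side on chromosome 11, Stat5b at 100780731 to 100850724 on the minus strand and Stat5a at 100859351 to 100885169 on the plus strand. Stat5b, which carries most of the hormone's signal in hepatocytes, lay at 59.9, 54.4 and 56.5 CPM in LiK 1, 2 and 3 and at 41.2, 50.1 and 89.5 CPM in LiKM 1, 2 and 3. LiKM 3 was above all LiK libraries and the other LiKM libraries were below them. The log2 fold change was 0.08 (SE 0.27, 95% interval −0.55 to 0.72; edgeR Benjamini-Hochberg adjusted p = 0.880), and without LiKM 3 it was −0.34 (edgeR adjusted p = 0.181).

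Stat5a, the paralog that is prominent in mammary and blood cells, lay at 12.6, 14.7 and 10.8 CPM in LiK 1, 2 and 3 and at 10.1, 18.1 and 22.0 CPM in LiKM 1, 2 and 3. LiKM 1 was under every LiK library and LiKM 2 and 3 were over them, and the log2 fold change was 0.40 (SE 0.28; edgeR Benjamini-Hochberg adjusted p = 0.444). The summed markers of macrophages and of T and natural killer cells, which also express Stat5a, were higher in LiKM as given above. All 9 macrophage markers tested had positive log2 fold changes. Of the 10 T and natural killer cell markers, 9 were positive and 1 (Cd4) negative. The part of these cells in the Stat5a values was not tested. The transcripts of the paralogs share 608 stretches of 50 bases in GENCODE vM21, 8.21% of those of Stat5a and 11% of those of Stat5b. Reads from these stretches could be split between the paralogs or dropped, so the separate values carry that uncertainty. The exons of Stat5a also share 72 bases with Stat3 on the opposite strand, and the strand setting of the counting is not known here.

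The feedback inhibitors showed the widest spread. Cish, on chromosome 9 (107296026 to 107302784, plus strand), encodes a SOCS-family protein that is induced within minutes of hormone binding. Its level was 18.4, 51.6 and 28.0 CPM in LiK 1, 2 and 3 and 7.80, 9.08 and 103 CPM in LiKM 1, 2 and 3. LiKM 1 and LiKM 2 thus lay under the whole LiK range and LiKM 3 over it, at 23.9%, 27.8% and 314% of the LiK mean. Socs2, on chromosome 10 (95385362 to 95417180, minus strand), encodes the SOCS protein whose loss gives oversized mice. It lay at 17.7, 16.1 and 26.1 CPM in LiK 1, 2 and 3 and at 5.64, 3.22 and 48.8 CPM in LiKM 1, 2 and 3, which are 28.3%, 16.1% and 244.5% of the LiK mean. The order of the groups was therefore the same as for Cish, with LiKM 1 and 2 below the LiK range and LiKM 3 above it.

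From its lowest to its highest LiKM library, Cish spanned 13.1-fold and Socs2 15.1-fold, against 2.80-fold and 1.63-fold within LiK. Of all 13537 genes tested, only 25 (0.185%) had a larger SD of log2 CPM over the LiKM libraries than Cish and only 26 (0.192%) than Socs2. The genotype means were close, at 32.7 ± 17.1 and 39.8 ± 54.3 CPM for Cish and 19.96 ± 5.42 and 19.2 ± 25.6 CPM for Socs2 (SD, n = 3 each). The fitted log2 fold changes were 0.28 (SE 0.96, 95% interval −1.97 to 2.54) and −0.06 (SE 0.90, 95% interval −2.16 to 2.04), with edgeR Benjamini-Hochberg adjusted p of 0.885 and 0.977. These intervals exclude neither a 2-fold rise nor a 2-fold loss. Without LiKM 3 the fit gave −1.97 (SE 0.43) for Cish, with an edgeR adjusted p of 0.0545, and −2.19 (SE 0.32) for Socs2, with an adjusted p of 0.0211. Leaving out any of the other 5 libraries gave no call for either gene.

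**Figure D3:**
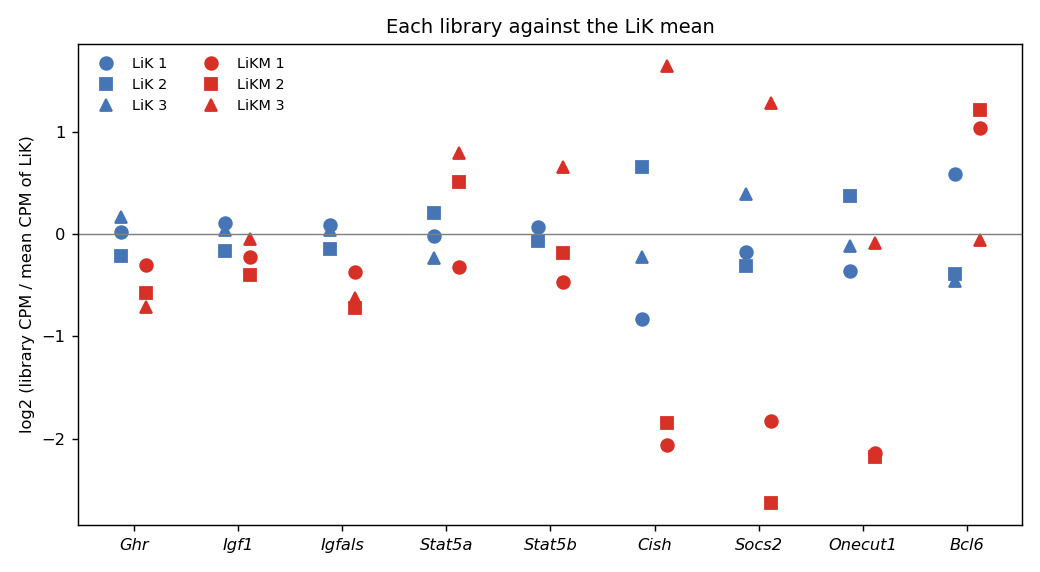
Log2 ratio of the CPM in each library to the mean CPM of the LiK libraries (y axis) for the 9 genes tested, LiK in blue and LiKM in red, with the shape of a point giving the mouse number. LiKM 1 and LiKM 2 lie together at the low end for Cish, Socs2 and Onecut1 and at the high end for Bcl6, whereas LiKM 3 lies above the LiK mean for Cish and Socs2 and near it for Onecut1 and Bcl6.

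Onecut1, on chromosome 9 (74861921 to 74891781, plus strand), encodes the transcription factor HNF6, which takes part in hepatocyte and bile duct development and is itself induced by growth hormone. Its level was 31.2, 52.1 and 36.9 CPM in LiK 1, 2 and 3 and 9.07, 8.85 and 37.7 CPM in LiKM 1, 2 and 3. LiKM 1 and LiKM 2 had 22.6% and 22.1% of the LiK mean and LiKM 3 had 94.1%, inside the LiK range. The log2 fold change was −1.11 (SE 0.57, 95% interval −2.44 to 0.21; edgeR Benjamini-Hochberg adjusted p = 0.302), and without LiKM 3 it was −2.18 (SE 0.24; edgeR adjusted p = 0.0115). In GENCODE vM21 the exons of Onecut1 share 2171 bases with a noncoding gene on the same strand, Gm20649, whose reads the counting could have assigned either way. Cish overlaps the antisense genes Gm17041 (479 bases) and Gm17040 (261 bases), and whether strand was used in counting is not known here.

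Bcl6, on chromosome 16 (23965052 to 23988852, minus strand), encodes a repressor whose binding sites resemble those of STAT5 and which growth hormone is known to lower in liver. It lay at 26, 13.2 and 12.6 CPM in LiK 1, 2 and 3 and at 35.5, 40.1 and 16.5 CPM in LiKM 1, 2 and 3. LiKM 1 and LiKM 2 were above all LiK libraries, at 206% and 233% of the LiK mean, and LiKM 3 was inside the LiK range. The mice low in Cish, Socs2 and Onecut1 among LiKM were thus the ones high in Bcl6. Within LiK the orders differed: LiK 1 had the most Bcl6 and the least Cish and Onecut1, but LiK 2 had the least Socs2 and LiK 3 the least Bcl6. The count of Cish divided by that of Bcl6 was 0.711, 3.92 and 2.23 in LiK 1, 2 and 3 and 0.220, 0.227 and 6.20 in LiKM 1, 2 and 3. Bcl6 had a log2 fold change of 0.83 (SE 0.39, 95% interval −0.09 to 1.76; edgeR Benjamini-Hochberg adjusted p = 0.269), and it was not called in any alternative. B cells also express Bcl6. The summed B cell markers lay at 3.03, 3.93 and 10.01 CPM in LiK 1, 2 and 3 and at 7.19, 6.58 and 8.87 CPM in LiKM 1, 2 and 3. The genotypes thus overlapped through LiK 3. Of the 7 B cell markers tested, 6 were positive, 1 was negative and 0 were called. The part of B cells in the Bcl6 values was not tested.

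Cux2, on chromosome 5 (121856366 to 122050102, minus strand), encodes a repressor of male-biased genes that is known as female-specific in adult mouse liver. It had 3, 2 and 13 counts in LiK 1, 2 and 3 and 8, 16 and 8 counts in LiKM 1, 2 and 3, at most 0.726 CPM. The genotypes overlapped, and a gene at this depth did not pass the filter. With no filter its log2 fold change was 0.87 (SE 0.66; edgeR Benjamini-Hochberg adjusted p = 0.559). The counts leave a wide error, and a change smaller than that error was not detectable at this depth.

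**Figure D4:**
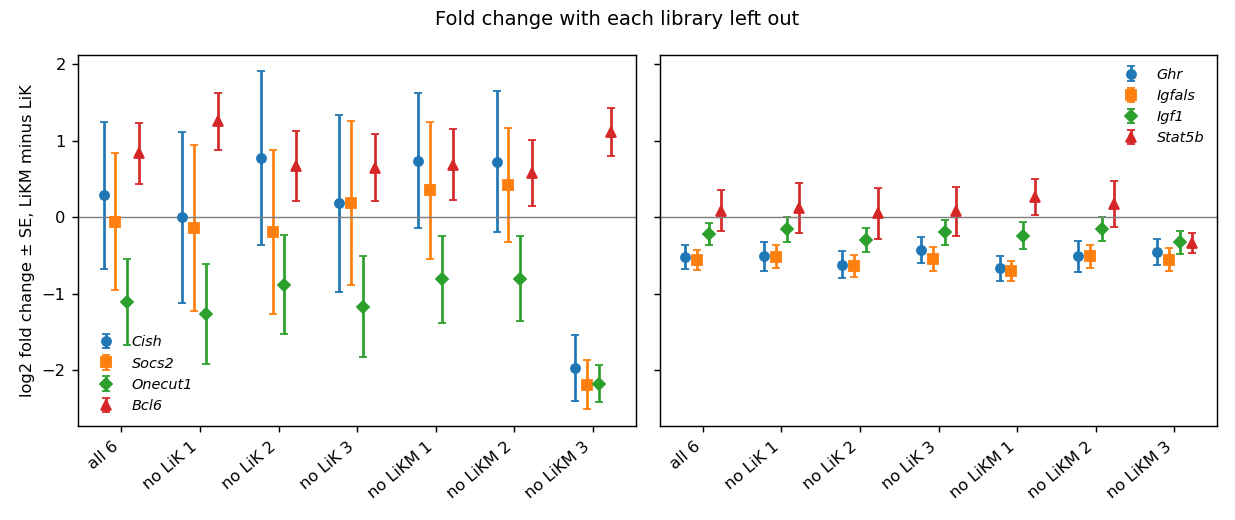
Log2 fold change of LiKM against LiK with its SE (y axis) in the fit of all 6 libraries and with each library left out in turn (x axis), for Cish, Socs2, Onecut1 and Bcl6 (left) and Ghr, Igfals, Igf1 and Stat5b (right). Without LiKM 3 the values of Cish (−1.97), Socs2 (−2.19) and Onecut1 (−2.18) move down together, while Ghr stays between −0.67 and −0.43 and Igfals between −0.70 and −0.51.

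Levels were compared between genes per length, as CPM per kilobase of exon in GENCODE vM21. In LiK the order was Ghr (69.8 ± 9.21), Igf1 (63.0 ± 6.21), Igfals (52.8 ± 4.57), Stat5b (10.3 ± 0.506), Onecut1 (9.74 ± 2.63), Cish (5.09 ± 2.66), Bcl6 (2.57 ± 1.13), Socs2 (2.09 ± 0.568), Stat5a (1.78 ± 0.271) and Cux2 (0.0257 ± 0.0236) (mean ± SD, n = 3). The receptor and the secreted products were thus the abundant transcripts and the signalling and regulatory genes the scarce ones. The LiK libraries of neighbours in this order overlapped, except that Igfals was separate from Stat5b and Stat5a from Cux2. In LiKM the first 3 places were taken by Igf1 (54.2 ± 6.68), Ghr (48.6 ± 7.11) and Igfals (35.6 ± 4.66), and Onecut1 (4.51 ± 4.03) stood after Cish (6.20 ± 8.46) and Bcl6 (4.58 ± 1.86), within their spread.

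The genes whose log2 CPM followed each axis gene most closely over the 6 libraries were found by Pearson r among the 13536 other genes tested. These values describe 6 livers, share the same library scaling, and some gene will come close to any pattern among so many candidates. Igfals was followed most closely by Ugt3a1 (r = 0.999), a glycosyltransferase gene, and by Sephs2 (r = 0.997). Ugt3a1 was itself called lower, with a log2 fold change of −0.99 (SE 0.21) and an edgeR Benjamini-Hochberg adjusted p of 0.0398. Ghr was followed by Upb1 (0.996) and Vamp8 (0.994), Igf1 by Pcbp4 (0.995) and Atg5 (0.986), Stat5a by Kctd5 (0.986) and Ddhd1 (0.977), and Stat5b by Cerkl (0.994) and Ctnnb1 (0.986). Nearest to Socs2 were Dcps (0.996) and Ezh1 (0.994), to Cish Dnajb12 (0.992) and Glt28d2 (0.981), to Bcl6 Snrpa1 (0.997) and Capza1 (0.996), and to Onecut1 Gm4787 (0.991) and Smarcc2 (0.990). Apart from Ugt3a1, none of these 18 neighbours was called by edgeR. The likeness is one of shape and not of size: Dnajb12 stayed between 34.6 and 42.5 CPM while Cish varied 13.1-fold within LiKM.

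Receptor signalling was also followed through a wider list. A list of 32 receptors, kinases, STATs, SOCS proteins, phosphatases and adaptors, which includes Ghr, Socs2, Cish, Stat5a and Stat5b, had 1 gene called higher, 0 lower and 31 not called, against 5.11% of all genes higher and 0.813% lower, with a median log2 fold change of 0.09. With 1 call, nothing particular to the list was read from this count. Without LiK 1, LiK 2 or LiKM 2 no gene of the list was called. All genes called then numbered 26, 18 and 44 higher and 5, 1 and 3 lower, in that order. Jak2, the kinase bound to the growth hormone receptor, had a log2 fold change of 0.23 (SE 0.18) with a level of 15 to 18.5 CPM in LiK and 15.9 to 23.9 CPM in LiKM. Prlr, the prolactin receptor gene, lay at 45.6, 37.9 and 79.6 CPM in LiK and 52.3, 71.0 and 88.9 CPM in LiKM (0.38, SE 0.31), and the ranges overlapped for both genes.

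The SOCS genes that cytokines induce were examined beside Socs2 and Cish. Socs3, a target of STAT3 that also inhibits growth hormone receptor signalling, lay at 7.90, 16.5 and 6.53 CPM in LiK 1, 2 and 3 and at 7.80, 7.31 and 70.0 CPM in LiKM 1, 2 and 3. LiKM 3 alone was high, and with a fitted difference of 1.46 on the log2 scale (SE 0.90) the gene missed the call (edgeR Benjamini-Hochberg adjusted p = 0.390). Socs1 was scarce, with at most 0.369 CPM in LiK and 0.517, 1.27 and 2.12 CPM in LiKM, every LiKM library was above the LiK range, and the difference of 2.39 on the log2 scale (SE 0.82) was not called (edgeR adjusted p = 0.146). Other genes, chosen after their values were seen, also set LiKM 3 apart: Stat3 lay at 226 CPM there and between 104 and 135 CPM in the other 5 libraries, Irs2, an adaptor of insulin signalling that rises in fasting, at 47.9 CPM against 2.72 to 11.5 CPM, and the fibrinogen gene Fgb at 6227 CPM against 3003 to 4247 CPM. Tat, a gluconeogenic enzyme gene, was lowest there, at 794 CPM against 2737 to 5431 CPM. Their part in the high Cish and Socs2 of LiKM 3 was not tested.

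Among sex-biased liver genes, which depend on the pattern of growth hormone, some male-biased genes fell and some female-biased genes rose in LiKM. Of 25 tested male-biased genes other than the major urinary protein genes, 7 were called lower and 0 higher, against 0.813% and 5.11% of all genes, and the median log2 fold change was −0.84. All 25 were negative with the scaling used, and 24 with upper quartile scaling or library totals. These genes and the ones below were chosen with earlier results of the same libraries known, so the direction is not independent evidence. Serpina12, a serine protease inhibitor gene, fell from 20.3, 10.4 and 22.2 CPM in LiK 1, 2 and 3 to 2.68, 1.41 and 3.52 CPM in LiKM 1, 2 and 3 (log2 fold change −2.80, SE 0.40). Cyp7b1, an oxysterol hydroxylase gene, fell from 429, 425 and 183 CPM to 82.6, 29.9 and 19.6 CPM, and Cyp2d9, a steroid hydroxylase gene, from 1775, 1902 and 1891 CPM to 1205, 942 and 853 CPM. Susd4, a complement regulator gene, fell from 12.9, 14.8 and 10.1 CPM to 4.32, 1.45 and 1.21 CPM. Under the LiK range lay 16 of the 25 genes in LiKM 1, 23 in LiKM 2 and 18 in LiKM 3. The share of all genes under that range was not computed per library, so nothing particular to the list was read from these counts. Their relation to Cish, Socs2 and Onecut1 was not tested. Elovl3, a fatty acid elongase gene chosen after its values were seen, was like Cish and Socs2 low in LiKM 1 and LiKM 2 and high in LiKM 3. It lay at 79.9, 58.8 and 30.4 CPM in LiK 1, 2 and 3 and at 5.92, 3.40 and 131 CPM in LiKM 1, 2 and 3. Its order among the LiK libraries was that of neither Cish nor Socs2. The number of male-biased genes called lower was 0 without LiK 1, LiK 2 or LiKM 2. It was 4 without LiK 3 or LiKM 3 and 7 without LiKM 1. All genes called lower numbered 5, 1 and 3 without LiK 1, LiK 2 and LiKM 2. Without LiK 3, LiKM 3 and LiKM 1 they numbered 47, 101 and 68.

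Of 29 female-biased genes, 23 passed the filter, 4 were called higher and 0 lower, against 5.11% and 0.813% of all genes. The median log2 fold change of the 23 was 1.16, with 16 positive and 7 negative. Genes scarce in or absent from LiK passed only through their LiKM counts, which favours genes that are higher there. Among the called genes this holds for Cyp3a44 and Hao2. With the filter of 1 CPM in 3 libraries, the median over 19 genes was 0.68. Cyp2b9, a cytochrome gene, rose from 9.25, 5.59 and 31.2 CPM in LiK 1, 2 and 3 to 82.4, 114 and 94.4 CPM in LiKM 1, 2 and 3 (log2 fold change 2.65, SE 0.59). Cyp3a44 rose from at most 0.205 CPM to 2.44, 12 and 3.18 CPM, Hao2, a peroxisomal oxidase gene, from at most 0.287 CPM to 1.22, 1.54 and 2.65 CPM, and Prom1 from at most 1.15 CPM to 2.68, 6.76 and 7.18 CPM. Prom1 also marks bile duct and progenitor cells. Cyp2a4, known for female bias, lay at 47.7, 19.8 and 129 CPM in LiK 1, 2 and 3 and at 347, 671 and 102 CPM in LiKM 1, 2 and 3, so that LiKM 3 alone was inside the LiK range (chosen after its values were seen). Without LiK 1 or LiK 2 no female-biased gene was called, and without LiKM 2 there was 1. Without LiKM 1 there were 2, and without LiK 3 or LiKM 3 there were 3. All genes called higher numbered 26, 18 and 44 without LiK 1, LiK 2 and LiKM 2. Without LiKM 1, LiK 3 and LiKM 3 they numbered 308, 264 and 525.

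**Figure D5:**
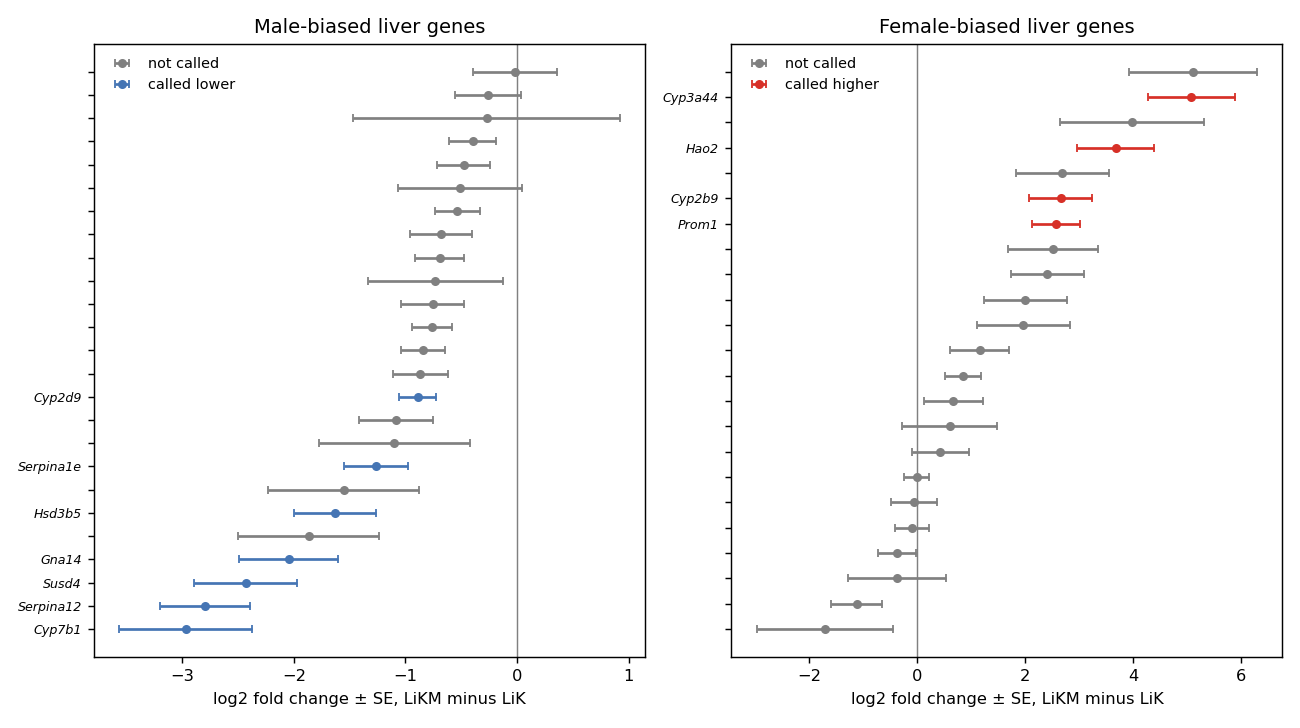
Log2 fold change with its SE (x axis) of each tested male-biased gene (left) and female-biased gene (right), in grey where not called, blue where called lower and red where called higher in LiKM, with names for the called genes. All 25 male-biased genes lie at or below 0 with 7 called lower. Of 23 female-biased genes, 16 are positive and 7 negative, and 4 are called higher. Among the called ones, Cyp3a44 and Hao2 passed the filter only through LiKM.

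Genes of lipid uptake and storage and the leptin receptor gene, known to rise in livers that lack growth hormone receptor or STAT5, held no call. Of 10 such genes 8 were tested, 0 were called by edgeR, DESeq2 or limma-voom, and the median log2 fold change was −0.10 (0.070 with library totals). Of the 8 genes, 3 were positive and 5 negative. An unadjusted p under 0.05 was found for 3 of 8, against 22.4% of all genes, and these were the 3 positive ones (Cd36, Vldlr and Lpl). Cd36, a fatty acid transporter gene chosen here after its values were seen, lay at 11, 15.3 and 18.8 CPM in LiK 1, 2 and 3 and at 21.4, 22.6 and 20.8 CPM in LiKM 1, 2 and 3 (log2 fold change 0.52, SE 0.19). Vldlr, a lipoprotein receptor gene chosen likewise, lay at 0.674, 0.654 and 1.68 CPM and at 2.30, 1.72 and 2.51 CPM (1.09, SE 0.42). The genotypes did not overlap for either gene, and neither passed edgeR's adjusted threshold. Every LiKM library lay above LiK for these 2 of the 8 genes, against 17.8% of all genes. Lpl, lipoprotein lipase, lay at 10.8, 7.0 and 24.8 CPM in LiK and 18.6, 39.98 and 47.9 CPM in LiKM (1.32, SE 0.51), and Plin4, a lipid droplet coat gene, at 71.8, 18.4 and 10.2 CPM and 21.4, 19.97 and 4.77 CPM (−1.12, SE 0.79). Lpl and Plin4 overlapped between the genotypes. Of 20 transcription factors and corepressors that work beside STAT5, 19 were tested and 0 were called by edgeR or limma-voom, with a median of −0.25, while 6 had an unadjusted p under 0.05, against 22.4% of all genes, and DESeq2 called 2 lower, against 2.79% of all genes in that tool. Cebpa, a hepatocyte differentiation factor, was lower in every LiKM library, at 326, 417 and 412 CPM in LiK and 236, 229 and 290 CPM in LiKM (−0.62, SE 0.15; edgeR Benjamini-Hochberg adjusted p = 0.0619). Hnf4a, the master regulator of hepatocyte identity, lay at 1098, 960 and 660 CPM in LiK and 705, 615 and 635 CPM in LiKM (−0.48, SE 0.20) and overlapped.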

How the data were processed

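Liver RNA of 6 mice was sequenced as 1 library each. Per the labels' protocols, a stranded kit that selects messenger RNA was used. Read quality was examined in FastQC 0.11.7 and genes were quantified by featureCounts, per the submitters' processing notes. For the aligner, genome build, annotation and strand setting, the entry is "not given in the sources used here". Raw counts, 1 column per mouse, were deposited, and each column was matched to a sample by the animal code in its title.

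The 10 genes and the lists were chosen with earlier results of these data known. Genes were kept with edgeR 4.0.16's default filter (a count of about 10 in at least 3 libraries and a total of at least 15), which left 13537. TMM factors spanned 0.903 to 1.11. The genotypes were compared with edgeR's quasi-likelihood test in R 4.3.3, genotype as the only term, with a threshold of 0.05 on the Benjamini-Hochberg adjusted p over all genes tested. The common biological coefficient of variation was 22.3%. The log2 CPM values used for spread and likeness had a prior count of 2. SEs were derived from the coefficient and its F statistic. The titles give each mouse its own code, so libraries were treated as separate animals. P-values set the genotype difference against the spread between these animals, which edgeR estimates with information shared over all genes. No library repeated another, since chi-square per gene between libraries of a genotype was 36.1 to 125.

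Named were the 10 genes, Mdm2, Jak2, Prlr, Socs1, Socs3, the sex check genes, per list up to 4 called genes with the smallest adjusted p (or the 2 most abundant if none), and 2 nearest genes per axis gene. Elovl3, Cyp2a4, Cd36, Vldlr, Stat3, Irs2, Fgb and Tat were added after their values were seen. An allele that both genotypes share and a few genes of the lists are not reported here by name. The test was checked on simulated data in which all genes had the same biological variation and only well-counted genes were changed. That check does not cover genes as variable as Cish and Socs2 or as scarce as Socs1. Alternatives were median ratio, upper quartile and library total scaling, no filter, a filter of 1 CPM in 3 libraries, DESeq2 1.42.0, voom of limma 3.58.1, the replicate number as a block and each library left out. Promoter windows and their sequences are from RefSeq, gene coordinates and exon lengths from GENCODE vM21, both on GRCm38, which may not be the annotation of the counting.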

Additional observations from a re-analysis of the deposited data

How the results depend on the processing

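Of the 126 combinations of an axis gene and an alternative, 112 kept both the direction and the side of the threshold. The direction reversed for Socs2 with library totals (0.0745, where the median of all genes also moved up to 0.16) and for Cish with limma-voom (−0.63). With the replicate block Cish also reversed (−0.67), and leaving out a library reversed Cish (−1.97 without LiKM 3 and −0.0041 without LiK 1, in a range of −1.97 to 0.77), Socs2 (0.18 without LiK 3, 0.35 without LiKM 1 and 0.42 without LiKM 2, in a range of −2.19 to 0.42) and Stat5b (−0.34 without LiKM 3, in a range of −0.34 to 0.27). The cause was not tested. Ghr, Igf1, Igfals and Onecut1 stayed negative and Stat5a and Bcl6 positive in all 14 alternatives. Counts of calls moved most. All genes called numbered 1039 higher and 63 lower with library totals and 1214 and 377 with DESeq2, and leaving out a library gave 18 to 525 higher and 1 to 101 lower. DESeq2 called 2 axis genes lower, and the omissions gave 0 to 2. For the lists DESeq2 gave 2 receptor and signalling genes higher and 1 lower, 12 male-biased genes lower, 7 female-biased genes higher and 2 transcription factors lower, and limma-voom gave 4 male-biased genes lower and 2 female-biased genes higher. Omissions gave 0 to 1 receptor and signalling genes in either direction, 0 to 7 male-biased genes lower, 0 to 3 female-biased genes higher and 0 to 1 transcription factors lower.

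Whether the replicate numbers of the titles pair the mice is not settled by these data. The correlation of deviations from the genotype means was 0.267, −0.0003 and 0.127 for the numbers 1, 2 and 3. The values for the numbers 1 and 3 were above those of all pairs of unlike numbers, which reached at most 0.0459. That highest unlike pair was LiK 2 with LiKM 3, above the value for the number 2. With the replicate block, 669 genes were higher and 166 lower, 1 axis gene was called lower (Igfals, edgeR adjusted p = 0.0392), 10 male-biased genes were lower, 6 female-biased genes higher and 1 transcription factor lower. Scarce genes such as Cux2 and Socs1 are limited by depth, and 3 mice per genotype limit all of these comparisons.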
